A study of Mus musculus with 4 samples.

Results

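The epithelial sodium channel and its aldosterone-linked partners were examined in primary mouse colonic epithelial cells. The 8 genes, found by symbol among the 50600 rows of a gene count table, were Scnn1a, Scnn1b, Scnn1g, Sgk1, Hsd11b2, Nedd4l, Tsc22d3 and Atp1b1, and all 8 passed the filter on low counts. RNA sequencing of oligo-dT-selected mRNA had been carried out on 4 libraries from C57BL/6 mice, 2 labelled wild type for Mettl14 (WT) and 2 labelled Mettl14 knockout (KO). Mettl14 encodes a subunit of the enzyme complex that methylates adenosines in mRNA. No treatment was named for either group. The sources used here do not give the age of the animals, the promoter or Cre line behind the deletion, or any pooling of animals. All 4 titles carry the code 2W, which no label explains.

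The channel is built from an alpha, a beta and a gamma subunit, encoded by Scnn1a, Scnn1b and Scnn1g, and sits in the apical membrane of surface cells of the distal colon, where it lets luminal sodium into the cell. Aldosterone acts through the mineralocorticoid receptor and raises, among other transcripts, the kinase gene Sgk1. The kinase phosphorylates the ubiquitin ligase encoded by Nedd4l, which otherwise binds the channel's cytoplasmic tails and marks it for removal from the membrane. Hsd11b2 encodes the enzyme that inactivates glucocorticoids and so keeps the receptor available to aldosterone, Tsc22d3 encodes the corticosteroid-induced leucine zipper protein GILZ, and Atp1b1 encodes the beta subunit of the sodium pump, which carries the absorbed sodium out across the basolateral membrane.

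Library totals ran from 22136440 to 24991060 counts, and levels are given as CPM, counts scaled to the library total. A count of 0 allowed a level of up to 0.12 to 0.1355 CPM by counting error alone. Each genotype held 1 male and 1 female library, as read from Xist and Y-linked transcripts (WT replicate 1 and KO replicate 2 were male). Mettl14 itself stood at 11.7 and 8.67 CPM in WT and at 3.99 and 3.94 CPM in KO, with a log2 fold change of -1.36 and an edgeR adjusted p of 0.0503, outside the threshold (0.00168 to 0.378 over the alternatives). Both KO libraries were lower. Epithelial markers were present in every library, with Epcam between 1031 and 1521 CPM, and all 9 of them were detected. None of the 9 was called by edgeR, and DESeq2 called 2 lower (Vil1 and Cldn7), against 6.31% of all genes. At an unadjusted edgeR p under 0.05, 1 was higher and 4 were lower in KO, against 14.8% and 15.7% of all genes. The median log2 fold change of the 9 was -0.42. Without overlap, 5 were lower and 1 was higher in KO, against 32.2% and 31.1% of all genes. Macrophage markers summed to 85.4 and 135.5 CPM in WT and to 241 and 203 CPM in KO. Of the 10, edgeR called 3 and DESeq2 called 6 higher in KO, against 1.72% and 6.35% of all genes. All 10 had a positive log2 fold change (median 1.11), and 8 were higher without overlap, against 31.1% of all genes. All 10 fibroblast and muscle markers also had a positive log2 fold change (median 1.95). Of these, 6 were higher in KO without overlap, against 31.1% of all genes. The sum of the 10 was 59.2, 85.7 and 83.1 CPM in WT replicate 1, WT replicate 2 and KO replicate 1, and 593.5 CPM in KO replicate 2. The erythroid sum was also highest in KO replicate 2, at 6681 CPM against 1976 and 2737 CPM in WT and 1353 CPM in KO replicate 1. Lymphocyte markers summed to 91.05 and 124 CPM in WT and to 142 and 109.9 CPM in KO, and the endothelial markers lay near 0, at 4.96 to 10.5 CPM in sum. The part of these cell types in the results below was not tested, and in bulk RNA fewer cells of a type and less RNA per cell cannot be told apart.

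Genes were compared between KO and WT by edgeR's quasi-likelihood test, with Benjamini-Hochberg adjustment over the 14861 genes that passed the filter and a threshold of 0.05 on the adjusted p. CPM were scaled with TMM factors, and a log2 fold change is KO minus WT. Of the 8 members, 1 was called lower in KO, namely Sgk1, and 0 were called higher, against 1.9% of all genes called lower and 1.72% called higher. At an unadjusted p under 0.05, 4 members were lower and 0 higher, against 15.7% and 14.8% of all genes. In 4 members (Scnn1g, Sgk1, Nedd4l and Tsc22d3) both KO libraries lay below both WT libraries, and in 0 above them. That separation held for 32.2% of all genes in the lower and 31.1% in the higher direction. DESeq2 called 2 members lower (Sgk1 and Scnn1g) and 0 higher, against 6.31% and 6.35% of all genes. With sex as a covariate, edgeR called 1 lower (Sgk1) and 0 higher, against 4.8% and 4.68%. The median log2 fold change was -0.51 over the members and -0.01 over all genes. Among marker lists it was -0.42 for colon epithelium, -0.65 for surface colonocytes and -0.51 for posterior Hox genes, whose part in the members' values was not tested. All 8 members had a negative log2 fold change, as did 7576 of the 14861 genes. The number of negative members was 5 without WT replicate 2, where the median was -0.19, and 8 without WT replicate 1, where it was -0.89.

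**Figure D1:**
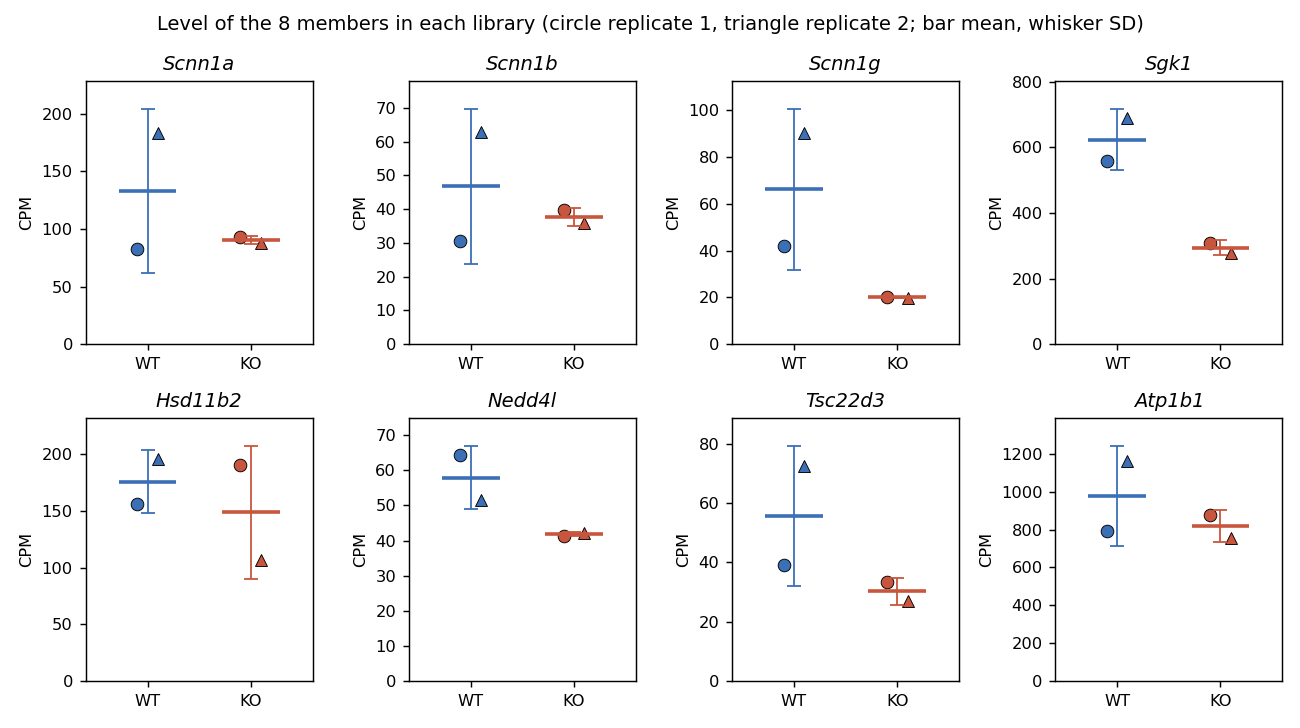
Level of each member in CPM (y axis, linear from 0) in the WT and KO libraries (x axis); circles are replicate 1, triangles replicate 2, the horizontal bar is the mean and the whisker the SD (n = 2). Both KO points lie below both WT points for Scnn1g, Sgk1, Nedd4l and Tsc22d3, and WT replicate 2 is the highest library for every member but Nedd4l.

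Among the channel subunits, Scnn1g was lower in each KO library than in either WT library, while Scnn1a and Scnn1b in KO lay between the WT libraries. Scnn1g (ENSMUSG00000000216, GRCm38 chromosome 7, 121734479 to 121768475, plus strand) stood at 41.9 and 90.4 CPM in WT and at 20.3 and 19.95 CPM in KO. The KO libraries were almost equal to each other and both lay below the lower WT library. Mean levels of 66.2 ± 34.3 (WT) and 20.1 ± 0.251 CPM (KO) (SD, n = 2) gave a fold change of -1.72 in log2 units (SE 0.39, 95% interval -2.74 to -0.69). The edgeR adjusted p was 0.0726, outside the threshold, and it ran from 1.75e-04 (DESeq2) to 0.385 over 15 alternatives. The gene was called lower by DESeq2, and its fold change was negative in all of the alternatives. The log2 fold change was -2.18 without WT replicate 1 and -1.03 without WT replicate 2. In those fits the spread came from the KO libraries alone.

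Scnn1b, the beta subunit gene that lies next to Scnn1g on the same strand (ENSMUSG00000030873, chromosome 7, 121865038 to 121918514), had overlapping groups. Its level was 30.5 and 62.9 CPM in WT and 39.7 and 35.9 CPM in KO. Both KO libraries thus fell between the WT libraries, and the log2 fold change of -0.31 (SE 0.36, 95% interval -1.25 to 0.63) was smaller than the spread within WT. The edgeR adjusted p was 0.592, with 0.584 to 0.832 over the 11 alternatives that kept every library. Scnn1a, the alpha subunit gene (ENSMUSG00000030340, chromosome 6, 125320659 to 125344943, plus strand), had the same order of libraries, at 82.4 and 183 CPM in WT and 92.8 and 87.8 CPM in KO. Its log2 fold change was -0.56 (SE 0.39, 95% interval -1.59 to 0.48, edgeR adjusted p = 0.386). Over the 11 alternatives that kept every library, the adjusted p of Scnn1a was 0.358 (DESeq2) to 0.649 (edgeR with no filter). For both genes 1 WT library decided the direction. Without WT replicate 2 the log2 fold changes were 0.16 for Scnn1a and 0.34 for Scnn1b, and without WT replicate 1 they were -1.03 and -0.75.

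**Figure D2:**
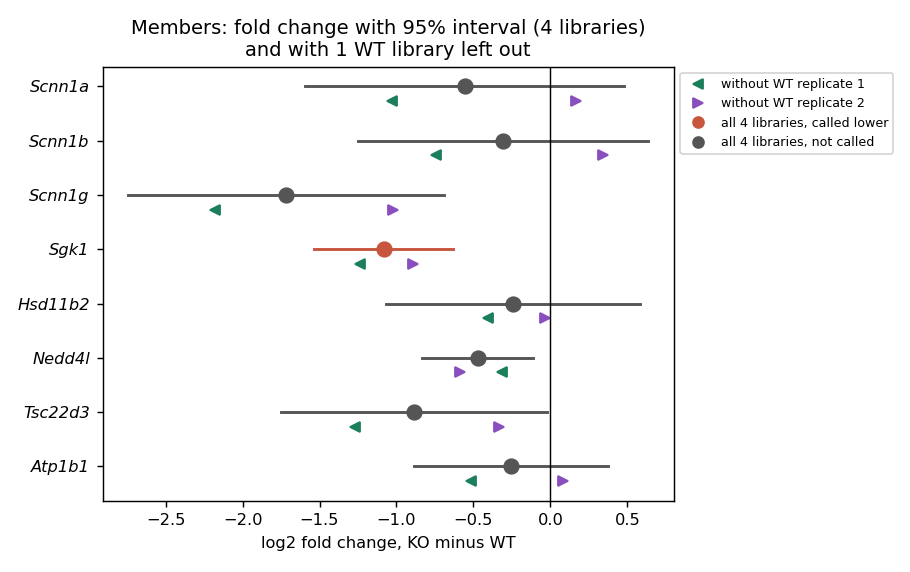
Log2 fold change of each member, KO minus WT (x axis), with circles for the edgeR estimate over 4 libraries, lines for its 95% interval and triangles for the estimate with 1 WT library left out. Sgk1 is the 1 called member, Scnn1g has the most negative estimate at -1.72, and the triangles of Scnn1a, Scnn1b and Atp1b1 lie on both sides of 0.

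The ratios between subunits lay close together within a genotype and apart between genotypes. WT replicate 2 exceeded WT replicate 1 by 2.22 times for Scnn1a, 2.06 times for Scnn1b and 2.16 times for Scnn1g. Per kilobase of annotated exon, the level of Scnn1g relative to Scnn1b was 1.21 and 1.27 in WT and 0.451 (replicate 1) and 0.490 (replicate 2) in KO. The ratio was 1.24 ± 0.0408 in WT and 0.470 ± 0.0279 in KO (SD, n = 2), 2.63 times higher in WT. Relative to Scnn1a, Scnn1g stood at 0.703 and 0.682 in WT and at 0.302 and 0.314 in KO. The difference between genotypes in log2 units was -1.40 for the ratio to Scnn1b and -1.17 for the ratio to Scnn1a, against a difference of at most 0.12 between libraries of 1 genotype. The remaining ratio, Scnn1b to Scnn1a, was 0.582 and 0.539 in WT and 0.671 and 0.641 in KO, a log2 difference of 0.23. The groups did not overlap for any of the 3 ratios. The two-sided exact permutation p was 0.333 for each, the smallest that 2 libraries against 2 can give, so this permutation test cannot pass a threshold of 0.05, and no other test of the ratios was run. The ratios were computed after the levels had been seen. As shares of the summed level per kilobase, Scnn1g made up 30.8% and 30.7% in WT and 15.3% and 16.1% in KO, and Scnn1b made up 25.5% and 24.3% in WT and 34.0% and 32.8% in KO.

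**Figure D3:**
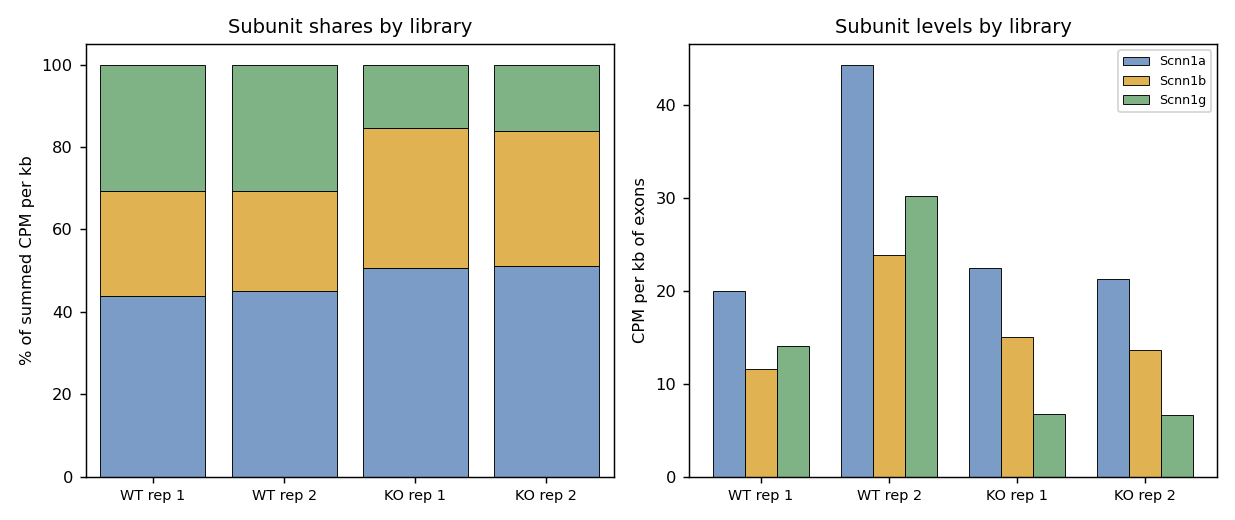
Left, share of each subunit in the summed CPM per kilobase of exon (y axis, percent) in each library (x axis); right, the levels themselves in CPM per kilobase, in the same colours. The Scnn1g share is 30.8% and 30.7% in WT and 15.3% and 16.1% in KO, although all 3 levels are about 2 times higher in WT replicate 2 than in WT replicate 1.

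Scnn1g and Scnn1b are separated by 96562 bases, and the sequences just before their starts are shown because these neighbouring genes differed in their KO to WT ratio. RefSeq promoter windows (GRCm38.p6, 250 bases before to 50 after a start) were matched for 5 of the 8 members by symbol. The last 120 bases before each start are at chr7:121734359-121734478 for Scnn1g and chr7:121864918-121865037 for Scnn1b, both on the plus strand, with the GC box, GGGCGG on either strand, in capitals.

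Scnn1g: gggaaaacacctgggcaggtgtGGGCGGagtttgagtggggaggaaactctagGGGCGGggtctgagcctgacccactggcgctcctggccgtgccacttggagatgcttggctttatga

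Scnn1b: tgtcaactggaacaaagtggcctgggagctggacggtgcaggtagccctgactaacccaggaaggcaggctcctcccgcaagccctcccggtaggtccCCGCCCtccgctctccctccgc

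The Scnn1g stretch holds 2 GC boxes, which begin 98 and 67 bases before the start, and the Scnn1b stretch holds 1 on the other strand, which begins 22 bases before it. Of all 32851 promoter windows of this length, 35.7% hold a GC box. The stretches had GC contents of 61.7% (Scnn1g) and 66.7% (Scnn1b). AGAACA, the single arm of the hormone response element, is held on either strand by 19.0% of all windows and was in neither of these. Member windows numbered 12, of which 7 held a GC box and 4 an arm. These matches are a description of the letters and not of binding.

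Sgk1, the kinase gene at the centre of the aldosterone response, fell in KO. Sgk1 (ENSMUSG00000019970, chromosome 10, 21882184 to 21999903, plus strand) stood at 558 and 689 CPM in WT and at 309.8 and 279 CPM in KO. Every KO value was well under the lower WT value. Means of 624 ± 92.5 (WT) and 294 ± 21.9 CPM (KO) (SD, n = 2) gave -1.08 in log2 units (SE 0.17, 95% interval -1.53 to -0.63, edgeR adjusted p = 0.0499), or 2.12 times lower. The adjusted p lay just inside the threshold. It was 0.0541 with relative log expression factors, 0.0513 with the robust option off and 0.0515 without mitochondrial and the 10 most abundant genes. Over the 15 alternatives it ran from 1.13e-05 (DESeq2) to 0.382 (without KO replicate 2), and the log2 fold change ran from -1.24 to -0.89. Without either KO library edgeR called no gene at all, with 2257 (without replicate 1) and 1987 (without replicate 2) genes at an unadjusted p under 0.05.

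RefSeq lists 6 promoter windows for Sgk1, and 1 of them, whose start is at chromosome 10 position 21993890, holds the full palindrome of 2 arms, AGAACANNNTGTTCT (which reads alike on both strands and overlaps 2 single-arm matches), the element that glucocorticoid and mineralocorticoid receptors are known to bind. The surrounding 55 bases (chr10:21993681-21993735, plus strand) are shown because 3 of the 32851 windows, or 0.0091%, hold these letters, with the palindrome in capitals.

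Sgk1: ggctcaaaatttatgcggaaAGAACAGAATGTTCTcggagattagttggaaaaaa

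The palindrome begins 189 bases before that start and lies inside the annotated span of Sgk1 but in none of its exons. The other 2 windows belong to Acnat2 and Gm35041. Counts per gene do not tell which Sgk1 start was used in either genotype. The windows of Tsc22d3 (3 of them) and Atp1b1 (1) hold no full palindrome, and 1 of the Tsc22d3 windows holds a single arm.

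Around the kinase, the genes called were a pair of ligase adaptors, a substrate of the kinase and a deubiquitinase. Nedd4l, the ligase that restrains the channel (ENSMUSG00000024589, chromosome 18, 64887705 to 65217828, plus strand), stood at 64.3 and 51.55 CPM in WT and at 41.4 and 42.2 CPM in KO. The groups did not overlap, and the log2 fold change was -0.47 (SE 0.14, 95% interval -0.83 to -0.11, edgeR adjusted p = 0.106). Over the 11 alternatives that kept every library, the adjusted p of Nedd4l was 0.0752 to 0.2935. The log2 fold change was -0.59 without WT replicate 2 and -0.31 without WT replicate 1. A list of 20 further genes around Sgk1 and Nedd4l was chosen with earlier results of these data known. Of these, 3 fell, 1 rose and 16 were not called, against 1.9% of all genes called lower and 1.72% higher. Their median log2 fold change was -0.20. Ndfip2, an adaptor that recruits ligases of the Nedd4 family, fell from 163 ± 23.9 to 73.1 ± 0.148 CPM (log2 fold change -1.16, SE 0.14, edgeR adjusted p = 0.0434). Its relative Ndfip1 fell from 62.7 ± 1.7 to 40.7 ± 1.89 CPM (-0.63, SE 0.10, edgeR adjusted p = 0.0480). Both KO libraries were below both WT libraries for each of these adaptors. Ndrg2, an aldosterone-induced gene whose protein is phosphorylated by the kinase, fell from 124 ± 27.7 to 45.8 ± 3.45 CPM (-1.43, SE 0.19, edgeR adjusted p = 0.0443). Usp10, a deubiquitinase gene, rose from 13.9 ± 0.456 to 32.2 ± 1.82 CPM (1.22, SE 0.11, edgeR adjusted p = 0.0434). Ndfip2, Ndrg2 and Usp10 were called in all 11 alternatives that kept every library. Ndfip1 was called in only some of them, with an adjusted p from 0.0153 (DESeq2) to 0.0971 (edgeR with library size only).

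Other genes of that group were not called. Ndrg1, another substrate of the kinase, stood at 211 and 114 CPM in WT and at 46.5 and 56.0 CPM in KO (a difference of -1.67 in log2 units, edgeR adjusted p = 0.0624, called lower by DESeq2 and with sex as a covariate). Oxsr1, a kinase of the WNK pathway, was at 45.3 and 42.4 against 30.7 and 29.03 CPM (-0.55, called lower by DESeq2). Nedd4, the founding ligase of the family and the most abundant gene of the group, stood at 183 ± 18.2 (WT) and 209.5 ± 13.6 CPM (KO) (0.20), and Ywhae, an adaptor protein gene, at 177 ± 16.2 and 162 ± 8.41 CPM (-0.13).

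The channel is also activated by proteolytic cleavage, and none of the 7 genes for these proteases and their inhibitors was called by edgeR. At an unadjusted edgeR p under 0.05, 1 was higher and 1 lower, against 14.8% and 15.7% of all genes. DESeq2 called 1 lower, against 6.31% of all genes. That gene was Spint2, a membrane-bound protease inhibitor, at 1019 and 1210 CPM in WT and 726 and 753 CPM in KO (a difference of -0.59 in log2 units, edgeR adjusted p = 0.101, 0.0208 to 0.465 over the alternatives). The related inhibitor gene Spint1 was at 334 ± 55.8 and 258 ± 20.4 CPM (-0.37). Prss8, the channel-activating protease prostasin, chosen here after its values were seen, had the opposite sign, at 15.5 and 26.9 CPM in WT and 35.1 and 41.6 CPM in KO (0.85, edgeR adjusted p = 0.139).

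**Figure D4:**
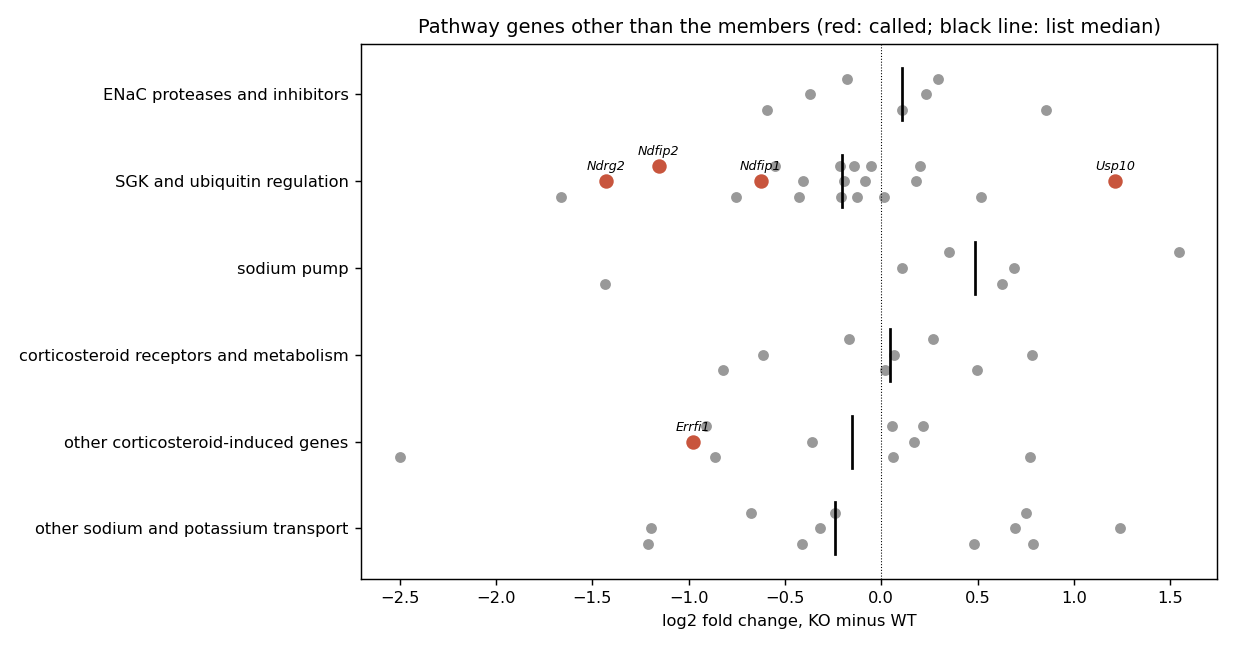
Log2 fold change, KO minus WT (x axis), of the tested genes in 6 lists of the sodium transport pathway other than the members (y axis); each point is a gene, red and named where edgeR called it, and black lines are list medians. Of 62 tested genes, 4 were called lower (Ndrg2, Ndfip2, Ndfip1 and Errfi1) and 1 higher (Usp10), against 1.9% and 1.72% of all genes.

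On the hormone side, edgeR made no call among genes for steroid reception, while DESeq2 made 3. Hsd11b2 (ENSMUSG00000031891, chromosome 8, 105518755 to 105523988, plus strand), which protects the receptor from glucocorticoids, stood at 156 and 196 CPM in WT and at 190.3 and 107 CPM in KO. The KO libraries differed more from each other than the genotype means did, and the log2 fold change was -0.24 (SE 0.31, 95% interval -1.07 to 0.58, edgeR adjusted p = 0.633, 0.285 to 0.957 over the alternatives). It was -0.73 without KO replicate 1 and 0.13 without KO replicate 2. Of 8 genes for corticosteroid receptors, their chaperones and glucocorticoid activation, edgeR called none. At an unadjusted edgeR p under 0.05, 1 was higher and 2 were lower, against 14.8% and 15.7% of all genes. DESeq2 called 1 higher and 2 lower, against 6.35% and 6.31%. The median log2 fold change of the 8 genes was 0.04. Nr3c1, the glucocorticoid receptor gene, was at 99.2 and 71.5 CPM in WT and 48.5 and 48.2 CPM in KO (-0.82, edgeR adjusted p = 0.0690, called lower by DESeq2 and with sex as a covariate). Nr3c2, which encodes the mineralocorticoid receptor and was chosen here after its values were seen, was at 63.5 and 68.5 CPM in WT and 39.9 and 46.4 CPM in KO (-0.61, SE 0.12, edgeR adjusted p = 0.0603, called lower by DESeq2). Both KO libraries were below both WT libraries for each receptor gene. H6pd, whose enzyme supplies the cofactor for glucocorticoid activation in the endoplasmic reticulum, was higher in both KO libraries (0.78, edgeR adjusted p = 0.0873, called by DESeq2 and with sex as a covariate). The chaperone genes Hsp90ab1 (0.27) and Hsp90aa1 (0.02), the most abundant of this group, were not called.

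Tsc22d3, the GILZ gene (ENSMUSG00000031431, chromosome X, 140539528 to 140600659, minus strand), stood at 38.9 and 72.3 CPM in WT and at 33.4 and 26.9 CPM in KO. All 4 values keep the genotypes apart, but WT replicate 1 was nearer to KO replicate 1 than to WT replicate 2. The log2 fold change was -0.88 (SE 0.33, 95% interval -1.75 to -0.02, edgeR adjusted p = 0.158). The edgeR adjusted p was 0.05245 with sex as a covariate and 0.386 with no filter, the extremes over alternatives with all 4 libraries. Without WT replicate 1 the log2 fold change was -1.27, and without WT replicate 2 it was -0.34. Of 10 other genes known to be induced through corticosteroid receptors, 1 fell, 0 rose and 9 were not called, with a median of -0.15. Of all genes, 1.9% were called lower and 1.72% higher. DESeq2 called 1 higher and 3 lower in the list, against 6.35% and 6.31% of all genes. The 1 that fell by edgeR was Errfi1, a feedback inhibitor of the EGF receptor, from 205 ± 5.8 to 104 ± 7.21 CPM (-0.98, SE 0.12, edgeR adjusted p = 0.0434). It was called in 10 of the 11 alternatives that kept every library. Mt2, a metallothionein gene, was at 364 and 85.6 CPM in WT and 35.9 and 43.6 CPM in KO. Its log2 fold change was -2.50 with an edgeR adjusted p of 0.107 (called lower by DESeq2), and -1.12 without WT replicate 1. Edn1, which encodes endothelin, was at 67.5 ± 14.97 and 35.9 ± 9.76 CPM (-0.91, edgeR adjusted p = 0.103, called lower by DESeq2 and with sex as a covariate). Cebpd, a transcription factor gene chosen here after its values were seen, was at 8.58 and 9.6 CPM in WT and 16.01 and 15.04 CPM in KO (0.77, SE 0.14, edgeR adjusted p = 0.0555, called higher by DESeq2 and with sex as a covariate). Genes of this list with values near 0 on the log2 scale were also present, among them Per1 (0.05) and Fkbp5 (0.22), chosen here after their values were seen.

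Atp1b1, the sodium pump's beta subunit gene (ENSMUSG00000026576, chromosome 1, 164437109 to 164458355, minus strand), stood at 791 and 1165 CPM in WT and at 879.8 and 757 CPM in KO. The groups overlapped, with KO replicate 1 above WT replicate 1. The log2 fold change was -0.26 (SE 0.24, 95% interval -0.89 to 0.37, edgeR adjusted p = 0.508, 0.163 to 0.881 over the alternatives), and 0.08 without WT replicate 2. Its exons share 1212 bases with those of Nme7 on the opposite strand, which had at most 147 counts a library against 16426 to 27682 for Atp1b1. Of 9 other pump subunit and FXYD regulator genes, 6 were tested and none called by edgeR or DESeq2, with a median of 0.49. At an unadjusted edgeR p under 0.05, 3 were higher and 0 lower, against 14.8% and 15.7% of all genes. Atp1b3, an alternative beta subunit gene, was at 34.1 ± 1.82 CPM in WT and 43.4 ± 2.41 CPM in KO (0.35). Fxyd3, a pump regulator gene, was at 16.7 ± 2.26 and 25.8 ± 1.68 CPM (0.63, edgeR adjusted p = 0.0737, 0.0322 to 0.381 over the alternatives). Fxyd4, an aldosterone-induced pump regulator of the distal colon, was at 7.61 and 21.04 CPM in WT and at 7.54 and 3.12 CPM in KO (-1.43, edgeR adjusted p = 0.219, called lower with sex as a covariate). Without WT replicate 2 its log2 fold change was -0.49.

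Among 11 other sodium and potassium transport genes edgeR called none. At an unadjusted edgeR p under 0.05, 5 were higher and 1 lower, against 14.8% and 15.7% of all genes. DESeq2 called 4 higher and 1 lower, against 6.35% and 6.31% of all genes. With sex as a covariate edgeR also called 4 and 1, against 4.68% and 4.8%. The potassium channel subunit gene Kcne3 was at 14.2 and 21.7 CPM in WT and 46.6 and 38.3 CPM in KO (a difference of 1.24 in log2 units, edgeR adjusted p = 0.0611). Kcnk5, a potassium leak channel gene, was at 65.6 and 97.4 against 38.5 and 31.9 CPM (-1.21, edgeR adjusted p = 0.0593). DESeq2 called both. The most abundant of these genes was Atp12a, the colonic proton-potassium pump, at 673.5 and 2155 CPM in WT and 799.9 and 434 CPM in KO (-1.20, and -0.09 without WT replicate 2). The sodium-proton exchanger gene Slc9a2 followed, at 286 ± 46.6 and 242 ± 60.3 CPM (-0.24). Across the 6 lists, 62 of 65 genes were tested, with a median of -0.11, and 17 were higher and 27 lower without overlap between genotypes, against 31.1% and 32.2% of all genes.

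Compared per kilobase of exon, the members spanned about 2 orders of magnitude in WT. Atp1b1 was highest at 317.5 ± 85.7 CPM per kb, then Sgk1 at 127 ± 18.9, Hsd11b2 at 95.6 ± 15.2, Scnn1a at 32.1 ± 17.2, Scnn1g at 22.1 ± 11.5, Scnn1b at 17.7 ± 8.68, Tsc22d3 at 12.8 ± 5.44 and Nedd4l at 3.28 ± 0.511 (SD, n = 2). The ranges of neighbours in this order overlapped from Scnn1a down to Tsc22d3, although both WT libraries held these 4 in the same order. In KO, Scnn1g was at 6.73 ± 0.084 CPM per kb, below Scnn1b at 14.3 ± 1.03 and beside Tsc22d3 at 6.95 ± 1.07, and Hsd11b2 at 80.8 ± 31.95 and Sgk1 at 60.0 ± 4.47 changed places with overlapping values. With the longest transcript as the length, Sgk1 (95.1) stayed above Hsd11b2 (80.8) in KO, and Tsc22d3 (19.3) passed Scnn1b (18.03) in WT, while the order of the subunits was the same.

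The library with the highest channel levels, WT replicate 2, also stood apart in markers of position along the gut. It was the female WT library, and WT replicate 1 was the male one. Posterior Hox genes, which mark the distal hindgut, summed to 162 and 312 CPM in the WT libraries and to 166 and 152 CPM in the KO libraries, in replicate order, and 6 of the 8 were higher in WT replicate 2 than in WT replicate 1. All 7 that were tested had a negative log2 fold change, with a median of -0.51. Of these 7, 5 were lower in KO without overlap, against 32.2% of all genes. Hoxd10, named here after its values were seen, fell from 10.4 and 15.1 CPM in WT to 2.75 and 3.35 CPM in KO (-2.06, SE 0.26, edgeR adjusted p = 0.0437). Most of that sum came from Hoxb13, at 88.8, 201, 108 and 95.9 CPM in the same order. Markers of surface colonocytes, dominated by Lypd8, summed to 14390, 21680, 12020 and 10070 CPM, although 5 of their 11 genes were higher in WT replicate 2 than in WT replicate 1. Of these 11, 4 had a positive and 7 a negative log2 fold change. Without overlap, 2 were higher and 4 lower in KO, against 31.1% and 32.2% of all genes. The 1 called was Aqp8, a water channel gene, named here after its values were seen. It fell from 1113 and 981 CPM in WT to 345 and 316 CPM in KO (-1.67, SE 0.16, edgeR adjusted p = 0.0434). WT replicate 2 was thus the highest library by the sum of both lists, as for Scnn1a, Scnn1b and Scnn1g. By the mean over genes of log2 CPM centred over the 4 libraries, it was also highest for the Hox list (0.53). The surface colonocyte list was highest in WT replicate 1 by that mean (0.32, against 0.11 in WT replicate 2). The part of these marker differences in the results was not tested, nor that of sex in the difference between the WT libraries. With sex as a covariate, the log2 fold changes between genotypes were -0.45 for Scnn1a, -0.22 for Scnn1b and -1.62 for Scnn1g. Of all genes tested, 97.5% had a smaller ratio of WT replicate 2 to WT replicate 1 than Scnn1a, 96.7% than Scnn1b, 97.2% than Scnn1g and 95.4% than Tsc22d3. Between the KO libraries the subunits differed by at most 0.14 on the log2 scale.

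**Figure D5:**
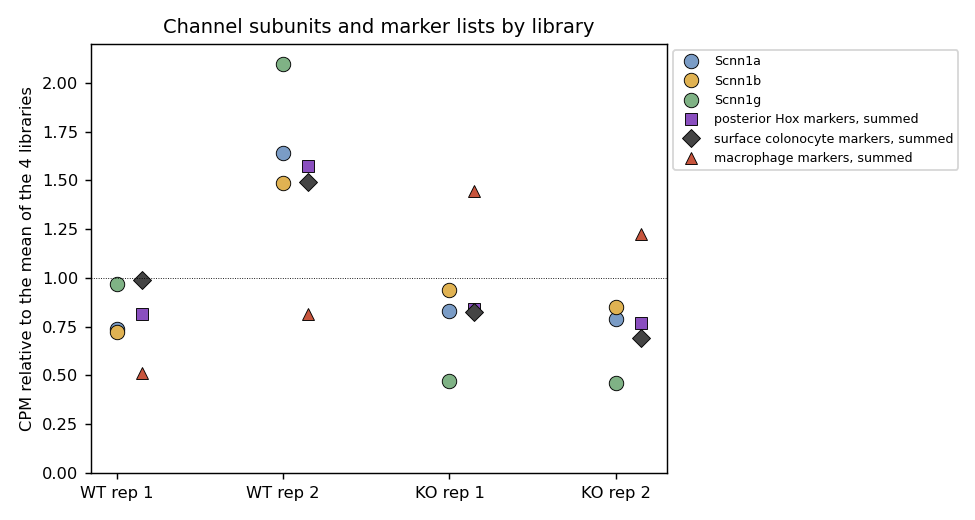
CPM relative to the mean of the 4 libraries (y axis, linear from 0) for the channel subunits and for the summed markers of posterior position, surface colonocytes and macrophages, by library (x axis). The channel subunits and the posterior Hox sum are all highest in WT replicate 2. In the other libraries Scnn1a, Scnn1b and the Hox sum are close to each other, while Scnn1g is lower in the KO libraries than in WT replicate 1.

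Profiles were also compared by the root mean square distance of centred log2 CPM over the 4 libraries, among 9775 named genes whose CPM averaged 5 or more over the libraries. The gene nearest to Scnn1a was Hoxb13, at a distance of 0.04, followed by Ctse (0.08) and Cd55 (0.08). Nearest to Scnn1b were Ston1 (0.04), Cox7a1 (0.05) and Ddx60 (0.05). Scnn1a and Scnn1b lay 0.12 apart, and Scnn1g lay 0.57 from Scnn1a and 0.69 from Scnn1b. The genes nearest to Scnn1g were Gcnt1 (0.17), Slc15a1 (0.17) and Trpv3 (0.17), which like it were highest in WT replicate 2 and lower in both KO libraries than in WT replicate 1. With 4 libraries these distances are a description.

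Within each sex, with 1 library a genotype and so no test, Sgk1 and Scnn1g were lower in KO in both pairs. Sgk1 was 2 times lower in the male pair (WT replicate 1 and KO replicate 2) and 2.22 times lower in the female pair. For Scnn1g the figures were 2.1 and 4.45 times. The KO to WT ratio of Scnn1a was 1.07 in the male pair and 0.507 in the female pair, and that of Scnn1b was 1.17 and 0.631. Nedd4l was at 0.656 and 0.802 of WT, Tsc22d3 at 0.691 and 0.462, Atp1b1 at 0.957 and 0.755, and Hsd11b2 at 0.686 and 0.972. Thus 6 of the 8 members were lower in KO in the male pair and 8 in the female pair.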

How the data were processed

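The authors deposited 1 table of whole-number counts per gene, not normalised, judged from the values. Build mm10 and the tools STAR 2.4.2a, RSEM 1.2.29 and FastQC 0.11.2 are listed per the submitters' processing notes, with no role for each. The sources used here do not give the strandedness, the annotation or whether estimates were rounded. Groups came from the genotype label, and replicate numbers, in accession order, pair nothing. The labels do not say that libraries of a group are separate animals. Within each group the libraries differed in sex by Xist and Y-linked transcripts, so they were not from the same animal. The p-values measure the spread between these samples, which includes the difference between the sexes. All 4 columns were used, and 0 were left without a sample.

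Genes were filtered with filterByExpr, scaled with TMM factors and tested with edgeR 4.0.16 (R 4.3.3, legacy and robust options on, two-sided, 2 residual degrees of freedom), with Benjamini-Hochberg adjustment over all genes. SE is the log2 fold change divided by the root of F. On simulated counts the procedure recovered direction and size of the changes, but the share of false calls was above the adjusted p threshold, so calls near it are less certain than that threshold states. Alternatives were other scaling factors, DESeq2 1.42.0, limma-voom (limma 3.58.1), edgeR options off, other filters, omission of abundant genes, sex as a covariate and omission of each library. Coordinates and exon lengths are from GENCODE M21 on GRCm38, to which mm10 corresponds, with 99.6% of identifiers matched. Promoters are from RefSeq (GRCm38.p6). The 8 members and the lists (6 of the pathway with 65 genes, 8 of markers) were chosen with earlier results of these data known. Named genes are the members, called pathway genes, up to 2 per list whose call differs under DESeq2 or the sex covariate, the 2 most abundant per list, and those said to be chosen later. A further gene of the pump list is not reported here.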

Additional observations from a re-analysis of the deposited data

How the results depend on the processing

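The 255 higher and 282 lower calls over all genes became 604 and 186 with library size alone, 896 and 890 with DESeq2, 862 and 770 with no filter, and 696 and 713 with sex as a covariate, while upper quartile factors gave 416 higher. Leaving out 1 library gave 0 to 1271 higher and 0 to 1019 lower, with 0 in both directions without either KO library. The 1 member called lower became 2 with DESeq2 and 0 with relative log expression factors, with the robust option off, or without mitochondrial and the 10 most abundant genes, and it ranged from 0 to 5 with 1 library left out. The pathway calls of 1 higher and 4 lower became 7 and 12 with DESeq2, 7 and 8 with no filter, and 7 and 9 with sex as a covariate. The higher calls were 7 with library size alone, 4 with upper quartile factors, 2 with limma-voom and 3 with a filter of CPM 1 in 2 libraries. Leaving out 1 library gave 0 to 8 higher and 0 to 11 lower. Signs reversed for Ywhae with library size alone (0.035) and, with 1 library left out, for Scnn1a (-1.03 to 0.16), Scnn1b (-0.75 to 0.34), Hsd11b2 (-0.73 to 0.13), Atp1b1 (-0.52 to 0.082) and Hsp90aa1 (-0.082 to 0.13). The cause was not tested. Library size alone moved the median log2 fold change of all genes from -0.01 to 0.15 and that of the members to -0.35, with all 8 members still negative. Over 33 named genes and 15 alternatives, 417 of 495 values kept their direction and their side of the threshold, 51 passed it newly, 21 lost it and 6 reversed. Replicate numbers were given in accession order and pair nothing, and the pairing of libraries by sex entered as the covariate above. With 2 libraries a group, the spread between libraries limits the precision. With 1 library left out, the spread came from the other genotype alone, so calls in those fits cannot be set beside the main ones.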
